A study of Mus musculus with 6 samples.

Results

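Genes for the peptide hormones of the gut were followed in the mucosa of the mouse gastric antrum, which adjoins the small intestine, with and without the gland mucin gene Muc6. The 10 genes were chosen by name from the 34866 genes of a count table: Gast, Sst, Ghrl, Gcg, Gip, Cck, Pyy, Nts, Sct and Pnoc. Bulk RNA was sequenced from 3 libraries of genotype Muc6 +/+ (wild type) and 3 of genotype Muc6 -/- (knockout), numbered 1 to 3 in each. The study asked how Muc6 relates to gastric carcinogenesis and made the Muc6 -/- mice for it. No treatment is named for either genotype, and the labels give no strain, age, sex or number of animals.

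Most of these hormones come from enteroendocrine cells, single hormone-releasing cells scattered through the gut epithelium. In the antrum, G cells release gastrin, which drives acid secretion, and D cells release somatostatin, which restrains gastrin and acid. Ghrelin comes from a further gastric cell type, while glucagon-like peptides, GIP, cholecystokinin, peptide YY, neurotensin and secretin are mainly hormones of the intestine. In bulk tissue, fewer cells of a type and less RNA per cell cannot be told apart.

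Libraries held 19839799 to 21354029 estimated counts. Levels are given in CPM, counts per 1000000 of a library size scaled for RNA composition. Means carry the SD of 3 libraries, and changes are the log2 ratio of knockout to wild type with its standard error (SE). A gene passed when its adjusted p in edgeR's quasi-likelihood test, with Benjamini-Hochberg adjustment over all 14017 genes tested, was under 0.05. Muc6 showed 396, 403 and 510.1 CPM in the wild-type libraries, a single count in knockout 1 and none in knockout 2 and 3. The Y-linked gene Ddx3y averaged 40.5 ± 1.06 CPM in the knockout against 0.165 ± 0.142 CPM in wild type (n = 3 each), so sex and genotype coincided and cannot be told apart in any difference below. The summed level of 9 antral epithelial markers was 198766, 170975 and 188243 CPM in the wild-type libraries and 58294, 70080 and 72209 CPM in the knockouts. The markers did not move as one. Of the 9, 5 passed as lower and 3 as higher, Epcam and Tff2 among the latter, where 19.2% of all tested genes were lower and 19.3% higher. Smooth muscle markers summed to 209.7, 1513 and 3233 CPM in wild type 1, 2 and 3 and to 73.1, 1006 and 696 CPM in knockout 1, 2 and 3, and their part in the results was not tested.

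Of the 10 hormone genes, 8 had enough counts to be tested, and Nts and Sct did not. Gast, Sst and Pnoc fell in the knockout, Pyy rose, and Ghrl, Gcg, Gip and Cck did not pass. Of all tested genes, 38.4% passed, 19.2% as lower and 19.3% as higher, against 4 of the 8 hormones. With total counts in place of composition scaling, 1091 genes were lower and 5730 higher, while the hormones still numbered 3 lower and 1 higher. Of the 8 tested hormones, 3 passed as lower by more than 2 on the log2 scale, against 2.01% of all tested genes. These were all 3 hormones that fell, while 282 of the 2687 genes that fell did so by that much. Of the 3, Pnoc passed the low-count filter through its wild-type libraries alone. The median log2 fold change of the 8 was -2.05, against 0.02 over all tested genes. The knockout libraries lay wholly below the wild-type ones for Gast, Sst, Ghrl and Pnoc, as for 26.6% of tested genes, and wholly above them for Pyy, as for 28.2%. Per kilobase of transcript, the 10 genes together reached 2839, 2796 and 1904 CPM in wild type 1, 2 and 3, and 50.1, 147 and 215 CPM in knockout 1, 2 and 3. Knockout 1 was the lowest knockout library for each of the 8 tested hormones and for Sct, and for 39.2% of all tested genes.

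**Figure D1:**
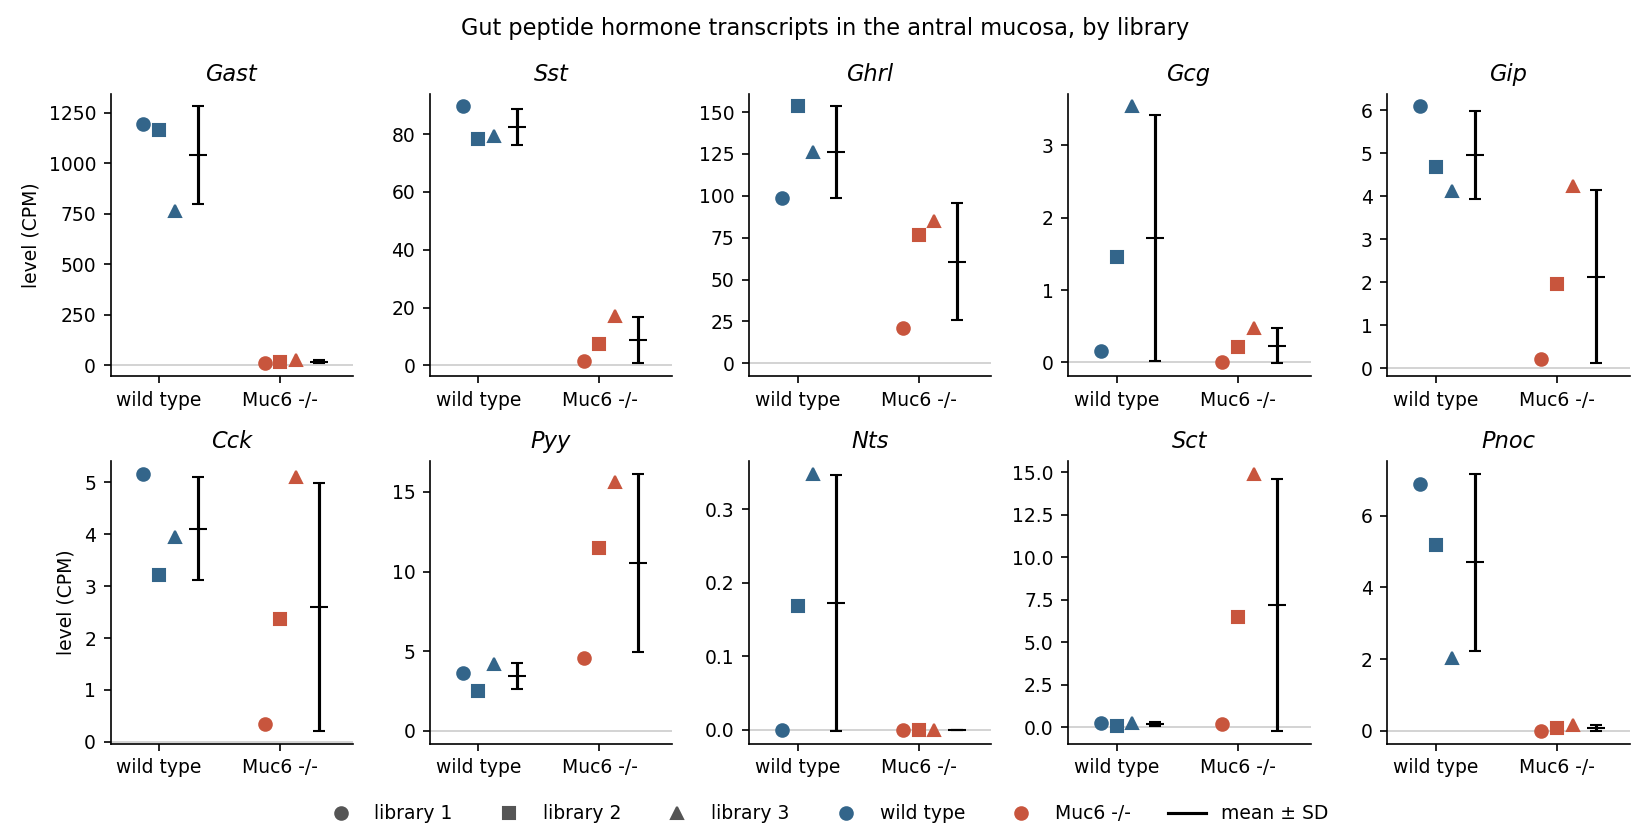
Level of each hormone gene (CPM, linear axis, a scale for each gene) in 3 wild-type (blue) and 3 Muc6 -/- (red) libraries, with symbols for the library number and bars for mean ± SD (n = 3). Knockout libraries lie below all wild-type ones for Gast, Sst, Ghrl and Pnoc and above them for Pyy, and Sct is high in knockout 2 and 3.

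**Figure D2:**
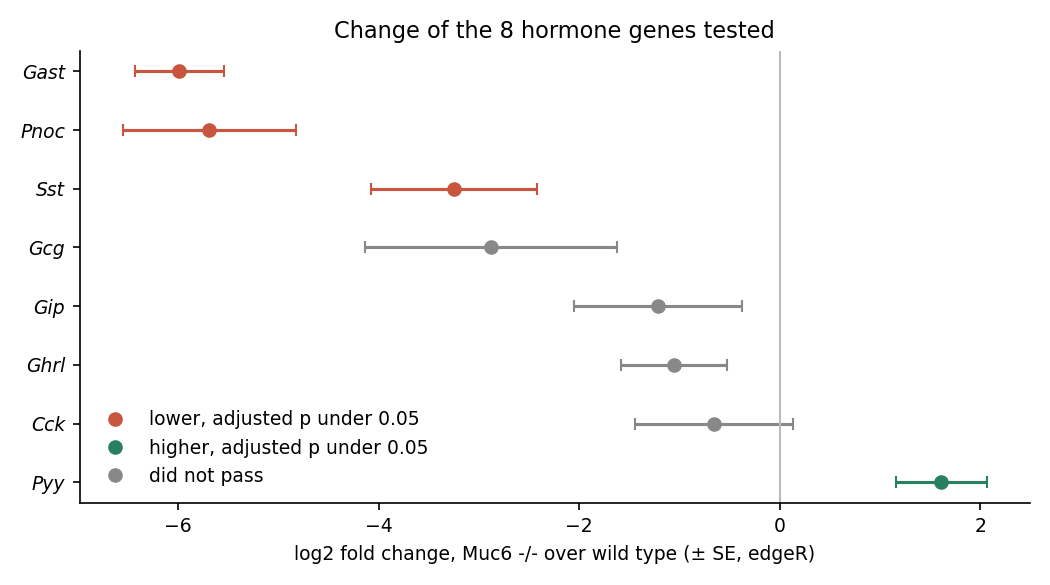
Log2 fold change of knockout over wild type with its SE for the 8 tested hormone genes, coloured by whether the gene passed in edgeR. Gast and Pnoc have the lowest values, at -5.99 and -5.69, and Pyy is the single one above 0.

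Gast, the gastrin gene (ENSMUSG00000017165.1, plus strand of chromosome 11, 100334407 to 100336996, mm10), was, per kilobase, the most abundant of the 10 hormone transcripts in the wild-type antrum. Wild type 1, 2 and 3 showed 1196, 1163 and 762 CPM, and knockout 1, 2 and 3 showed 9.52, 14.8 and 24.8 CPM. Every knockout library was far below every wild-type library. The mean went from 1040 ± 241 to 16.4 ± 7.77 CPM, or 1.57% of the wild-type mean. The log2 fold change was -5.99 (SE 0.44, edgeR adjusted p = 4.98e-04).

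Sst, the somatostatin gene (ENSMUSG00000004366.4, minus strand of chromosome 16, 23889573 to 23890958), also fell, by less. Wild type 1, 2 and 3 showed 89.6, 78.4 and 79.3 CPM, and knockout 1, 2 and 3 showed 1.40, 7.48 and 17.2 CPM. The wild-type values were close together, the knockout values spread widely with knockout 1 lowest, and the groups did not overlap. The mean fell from 82.4 ± 6.22 to 8.70 ± 7.98 CPM (log2 fold change -3.24, SE 0.83, edgeR adjusted p = 0.0309). The call was lost on leaving out any 1 wild-type library (adjusted p = 0.0754 to 0.0784) or knockout 2 (0.107), and with no filter on low counts (0.0806).

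Ghrl, the gene of ghrelin, which stimulates appetite (ENSMUSG00000064177.8, minus strand of chromosome 6, 113716119 to 113719880), did not pass. Its levels were 98.9, 153 and 126 CPM in wild type 1, 2 and 3 and 20.9, 76.5 and 84.8 CPM in knockout 1, 2 and 3. The groups did not overlap, but knockout 1 was much lower than the other knockouts. The log2 fold change was -1.05 (SE 0.53, edgeR adjusted p = 0.173). It passed at a smaller change of -0.64 without knockout 1 (adjusted p = 0.043) and at -0.82 without both libraries numbered 1 (0.00127). The annotation places Gm26982 and Gm44033 over exons of Ghrl on the opposite strand, and neither was analysed here. How strand was counted is unknown, so reads of these genes and of Ghrl cannot be told apart.

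Pnoc encodes prepronociceptin, the precursor of the opioid-like peptide nociceptin (ENSMUSG00000045731.6, minus strand of chromosome 14, 65400673 to 65425472). Wild type 1, 2 and 3 showed 6.90, 5.17 and 2.03 CPM, and knockout 1, 2 and 3 showed 0, 0.0831 and 0.174 CPM. The knockouts together held 6 counts against 254 in wild type. The log2 fold change was -5.69 (SE 0.86, edgeR adjusted p = 0.00261). The gene passed the low-count filter through its wild-type libraries alone.

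Pyy, the gene of peptide YY, which slows gastric emptying and intestinal transit (ENSMUSG00000017311.15, minus strand of chromosome 11, 102106676 to 102107832), was the single tested hormone that rose. Wild type 1, 2 and 3 showed 3.64, 2.53 and 4.18 CPM, and knockout 1, 2 and 3 showed 4.55, 11.5 and 15.6 CPM. Knockout 1 lay just above the highest wild-type library. The mean rose from 3.45 ± 0.839 to 10.5 ± 5.59 CPM (log2 fold change 1.61, SE 0.45, edgeR adjusted p = 0.0276). The call was lost on leaving out any 1 wild-type library (adjusted p = 0.0612 to 0.102), knockout 2 (0.0771) or knockout 3 (0.0864), and with limma-voom (0.123).

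Sct encodes secretin, which stimulates bicarbonate secretion from the pancreas (ENSMUSG00000038580.13, minus strand of chromosome 7, 141278330 to 141279133). The gene lies 354323 bases from Muc6 on the same chromosome. It had 5, 1 and 4 counts in wild type 1, 2 and 3 and 4, 156 and 342 counts in knockout 1, 2 and 3. As levels, the wild-type libraries spanned 0.0562 to 0.272 CPM, and knockout 1, 2 and 3 showed 0.170, 6.48 and 14.9 CPM. Knockout 1 thus lay inside the wild-type range and knockout 2 and 3 above it. Summed over a genotype, 10 counts stood against 502, a ratio of 38.0 of the pooled levels. The low-count filter kept Sct out of the test. With no filter the log2 fold change was 5.24 (SE 1.76, edgeR adjusted p = 0.108). Leaving out knockout 1, the library inside the wild-type range, let Sct through the filter by knockout 2 and 3 alone, where it is high. The fit without it (5.79, SE 0.61, adjusted p = 0.00129) drops the contrary value and is no support for a difference between genotypes.

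The remaining intestinal hormones were scarce. They are Gip (ENSMUSG00000014351.12, chromosome 11, 96024545 to 96030831, plus strand), Cck (ENSMUSG00000032532.7, chromosome 9, 121489824 to 121495694, minus), Gcg (ENSMUSG00000000394.15, chromosome 2, 62474530 to 62483650, minus) and Nts (ENSMUSG00000019890.4, chromosome 10, 102481756 to 102490486, minus). Gip, whose product raises insulin release after meals, showed 6.09, 4.67 and 4.12 CPM in wild type 1, 2 and 3 against 0.212, 1.95 and 4.23 CPM in knockout 1, 2 and 3 (log2 fold change -1.22, SE 0.84, edgeR adjusted p = 0.287). Cck, whose product contracts the gall bladder, showed 5.16, 3.21 and 3.94 CPM against 0.340, 2.37 and 5.10 CPM (log2 fold change -0.66, SE 0.79, edgeR adjusted p = 0.541). For both genes knockout 3 lay inside the wild-type range, while knockout 1 was the lowest library, 14.6-fold below the mean of the other knockouts for Gip. Without both libraries numbered 1, the change of Cck turned to 0.04 (adjusted p = 0.944).

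Gcg, which encodes glucagon and the glucagon-like peptides, had 3, 26 and 61 counts in wild type 1, 2 and 3 and 0, 5 and 11 in knockout 1, 2 and 3. The groups overlapped, and the log2 fold change was -2.88 (SE 1.26, edgeR adjusted p = 0.112). It passed on leaving out wild type 1 (-3.42, adjusted p = 0.0384) or both libraries numbered 1 (-2.87, 0.00742). Wild type 1 lay inside the knockout range, so these fits drop the contrary value and are no support for a difference between genotypes. Nts, the neurotensin gene, had 0, 3 and 6 counts in wild type 1, 2 and 3 and none in the knockouts. Wild type 1, at 0, equalled the knockouts, so the groups overlapped. The low-count filter kept Nts out of the test, and with no filter it did not pass (log2 fold change -4.86, SE 1.93, edgeR adjusted p = 0.101). Against a floor of 3 counts over the knockout group, 0.0425 CPM, the pooled wild-type level of Nts gave a lower bound of 3.96 on the fold. This bound takes the 9 wild-type counts as they stand, without their own counting error or the spread between libraries. Leaving out libraries, chosen as an alternative after the data were seen, put the bound at 1.95 without wild type 3, at 6.04 without wild type 1 and at 2.61 to 2.67 without any 1 knockout.

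The promoter sequences of the hormones Gast and Sst, lower in the knockout, and Pyy and Sct, which stood higher in knockout 2 and 3, are given to show the regions from which these transcripts start. Each is the 250 bases before the RefSeq start site (RefSeq, GRCm38.p6, 5′ to 3′ on the strand of the gene), at chr11:100334157-100334406 for Gast (plus strand), chr16:23890845-23891094 for Sst (minus), chr11:102107833-102108082 for Pyy (minus) and chr7:141279134-141279383 for Sct (minus). Capitals mark matches on either strand to any of 5 motifs. The cAMP response element was searched as TGACGTCA. The E box, bound by helix-loop-helix factors, was searched as CANNTG. The core bound by homeodomain factors was searched as TAATTA. The box that places the start of transcription was searched as TATAAA, and the box bound by Sp factors as GGGCGG.
Gast: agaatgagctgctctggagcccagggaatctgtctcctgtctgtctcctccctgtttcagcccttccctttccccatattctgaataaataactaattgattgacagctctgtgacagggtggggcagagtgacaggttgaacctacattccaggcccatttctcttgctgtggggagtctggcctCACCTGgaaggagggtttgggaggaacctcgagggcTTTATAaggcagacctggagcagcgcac
Sst: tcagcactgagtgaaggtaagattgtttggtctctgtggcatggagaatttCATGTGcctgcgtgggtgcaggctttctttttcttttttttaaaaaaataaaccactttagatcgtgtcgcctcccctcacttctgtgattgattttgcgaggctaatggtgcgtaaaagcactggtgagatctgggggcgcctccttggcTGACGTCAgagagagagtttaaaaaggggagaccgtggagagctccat
Pyy: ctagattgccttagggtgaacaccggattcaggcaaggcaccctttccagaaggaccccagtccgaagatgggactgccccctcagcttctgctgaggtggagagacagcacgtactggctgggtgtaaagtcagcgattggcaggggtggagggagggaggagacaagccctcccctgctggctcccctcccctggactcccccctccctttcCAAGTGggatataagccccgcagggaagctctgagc
Sct: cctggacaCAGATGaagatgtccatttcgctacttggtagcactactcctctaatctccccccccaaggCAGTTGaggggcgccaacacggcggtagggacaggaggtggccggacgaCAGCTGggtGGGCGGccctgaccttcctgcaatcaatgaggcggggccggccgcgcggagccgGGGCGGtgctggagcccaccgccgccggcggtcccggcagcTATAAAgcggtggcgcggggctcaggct
Of the 10 genes, 9 had a promoter in the RefSeq table. Sst alone of these held TGACGTCA, 48 bases before its start, and 1.55% of the 32851 promoters of this length held it. TATAAA, on either strand, stood 28 bases before the start in both Gast and Sct and was also in Gcg, against 12.4% of all promoters. Among these 9 genes GGGCGG was in Sct alone, at 2 places, against 32.7%, CANNTG was in all 9 against 66.2%, and TAATTA was in none against 4.84%. A gene was counted if any of its RefSeq promoters matched, while the shares are of single promoters. Ghrl had 4 promoters, not all with CANNTG, so counts of genes and shares are unlike measures. The motif matches in these 4 windows do not overlap each other. The GENCODE start of Sst lies 114 bases upstream of the RefSeq start, inside the printed window. A match describes these letters, not a bound site.

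Ordered by level per kilobase of transcript, the wild-type antrum was dominated by Gast, at 2262 ± 525 CPM per kilobase. Ghrl and Sst followed at 117 ± 25.2 and 114 ± 8.63 CPM per kilobase, and their ranges overlapped. Gip (7.22 ± 1.48) and Pyy (5.47 ± 1.33) also overlapped each other, as did Cck (3.14 ± 0.757) with Pnoc, Pnoc with Gcg, Gcg with Sct and Sct with Nts, all in CPM per kilobase. In the knockout the order of the means was Ghrl (56.3 ± 32.2), Gast (35.6 ± 16.9), Pyy (16.7 ± 8.86), Sst (12.1 ± 11.1) and Sct (11.1 ± 11.5 CPM per kilobase), and each of these overlapped its neighbour. Gast made up 91.6%, 90.4% and 87.0% of the summed hormone level per kilobase in wild type 1, 2 and 3, and 41.3%, 21.9% and 25.1% in knockout 1, 2 and 3. The share of Ghrl was 3.23% to 6.15% in wild type against 36.6% to 48.4% in the knockout, although its own level lay lower in each knockout library. That of Pyy was 0.143% to 0.348% in wild type against 11.5% to 14.4% in the knockout. Sct made up 0.00312% to 0.0189% in wild type and 0.526%, 6.86% and 10.8% in knockout 1, 2 and 3.

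**Figure D3:**
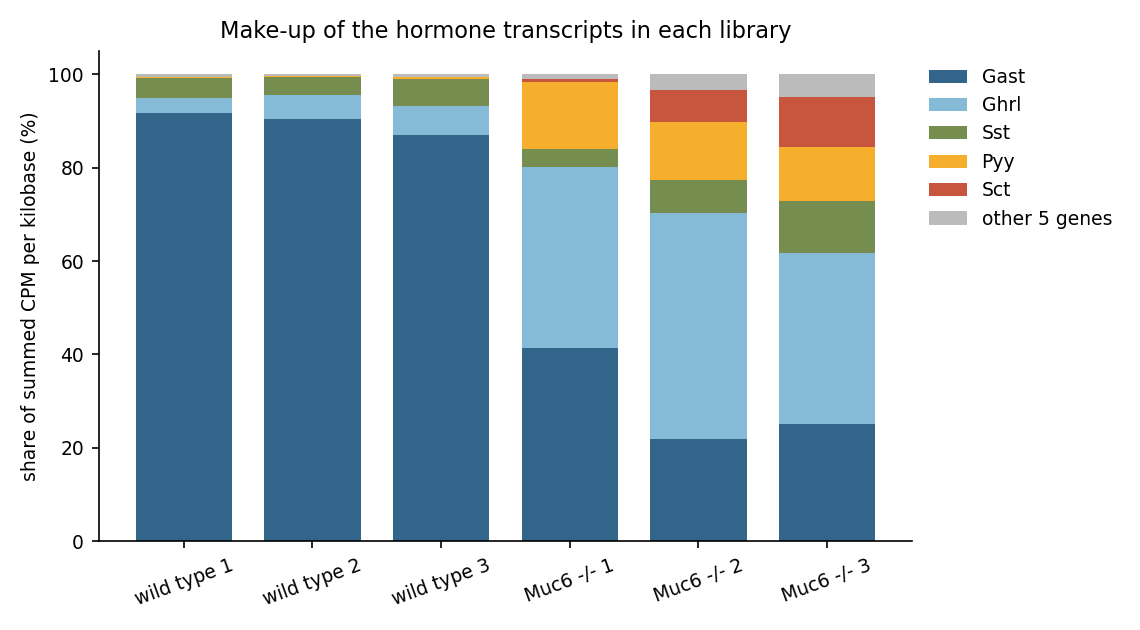
Share of each hormone gene in the summed CPM per kilobase of the 10 genes, per library (stacked bars to 100%). Gast fills 87.0% to 91.6% of the wild-type bars, while Ghrl, Pyy, Sst and, in knockout 2 and 3, Sct fill most of the knockout bars.

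Chga, the gene of chromogranin A, a granule protein of most endocrine cells, served as a reference within each library. It showed 95.1, 113 and 87.9 CPM in the wild-type libraries against 8.20, 44.8 and 67.0 CPM in the knockouts. It did not pass (log2 fold change -1.30, SE 0.72, edgeR adjusted p = 0.209) but passed without knockout 1 (-0.82, 0.0232). It shared the low value of knockout 1 with the hormones. Relative to Chga, per kilobase, Gast stood at a ratio of 75.3, 61.9 and 51.9 in wild type 1, 2 and 3 and of 6.95, 1.98 and 2.22 in knockout 1, 2 and 3. The Gast to Chga ratio was thus lower in every knockout library, by 4.32 on the log2 scale. The Sst to Chga ratio was 3.60, 2.66 and 3.45 in wild type and 0.662, 0.640 and 0.984 in the knockout, with a difference of -2.10, and knockout 1 did not stand apart from knockout 2 in it. The Ghrl to Chga ratio was 2.65, 3.48 and 3.67 in wild type and 6.51, 4.36 and 3.23 in the knockout, and the groups overlapped (difference 0.48 on the log2 scale). The ratio of Gast to Sst, the products of G and D cells, was 20.9, 23.2 and 15.1 in wild type 1, 2 and 3 and 10.5, 3.10 and 2.26 in knockout 1, 2 and 3, a difference of -2.21 on the log2 scale.

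These 4 ratios were compared with an exact two-sided permutation test of 3 against 3 libraries, which cannot give a p below 0.1. The p was 0.1 for Gast to Chga, Sst to Chga and Gast to Sst (0.133 after Benjamini-Hochberg adjustment over the 4) and 0.3 for Ghrl to Chga. The ratios of 5 further hormones to Chga were added after the data were seen. Those of Pyy and Sct were higher in every knockout library than in any wild-type library, by 3.21 and 5.57 on the log2 scale, and that of Pnoc was lower in every one, by 4.04 (exact p = 0.1 each). The last rests on 0, 2 and 4 Pnoc counts and on the 0.5 counts added. Knockout 1, which had an Sct level inside the wild-type range, held an Sct to Chga ratio of 0.0994, compared with 0.00320 to 0.0134 among wild-type libraries, but this rests on its 4 counts. Those of Gip and Cck overlapped between genotypes, with differences of -0.22 and 0.45 (exact p = 0.6 and 0.5).

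**Figure D4:**
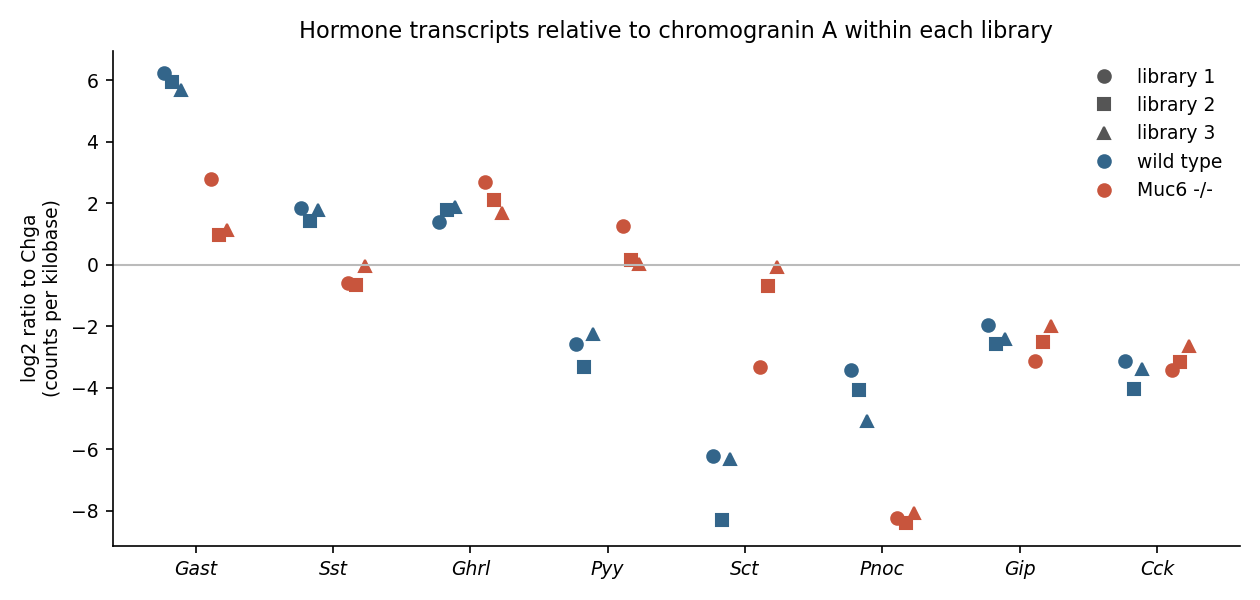
Log2 ratio of 8 hormone genes to Chga within each library, from counts per kilobase with 0.5 counts added, in wild type (blue) and Muc6 -/- (red). Gast, Sst and Pnoc lie lower in all knockout libraries, Pyy and Sct higher, and Ghrl, Gip and Cck overlap.

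Genes that process, modify or break down the peptides moved in both directions. Of 16 listed, 15 were tested, of which 6 fell, 4 rose and 5 did not pass, where 19.2% of all tested genes were lower and 19.3% higher. The median log2 fold change of the list was -1.31. Cpe, a carboxypeptidase that trims prohormones, showed 123, 159 and 156 CPM in the wild-type libraries against 16.1, 33.7 and 31.3 CPM in the knockouts (log2 fold change -2.43, SE 0.29, edgeR adjusted p = 0.00136). Dpp4, a surface protease that inactivates glucagon-like peptides and GIP, fell by 2.36 on the log2 scale (SE 0.36, edgeR adjusted p = 0.00384). Furin, a widely expressed convertase, rose by 1.56 (SE 0.17, adjusted p = 7.79e-04), and Ece1, an endothelin-converting protease, rose by 0.91 (SE 0.13, adjusted p = 0.00228). Mboat4, the enzyme that acylates ghrelin, was picked after its values were seen and showed 1.03, 1.46 and 1.16 CPM in the wild-type libraries against 0.127, 0.0831 and 0.262 CPM in the knockouts (log2 fold change -2.91, SE 0.58, edgeR adjusted p = 0.00733). Mboat4 passed the low-count filter through its wild-type libraries alone, where it is high. With total counts in place of composition scaling, 4 of the list were lower and 7 higher. The number higher was 2 on leaving out wild type 2, knockout 2 or knockout 3.

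Receptors of the hormones were mostly too scarce to test. Of 21 listed, 7 were tested, of which 1 fell, 2 rose and 4 did not pass, and the 3 of 7 that passed were near the 38.4% of all tested genes. Ghsr (ghrelin receptor) and Ntsr2 (neurotensin receptor) had no counts in any library. Glp1r, the receptor of glucagon-like peptide, showed 0, 0.169 and 0.290 CPM in the wild-type libraries against 18.4, 5.36 and 4.45 CPM in the knockouts. Knockout 1 was the highest library here, unlike for the hormones. The change of Glp1r (log2 fold change 5.90, SE 0.98, edgeR adjusted p = 0.00483) did not pass with limma-voom (0.0673). Glp1r passed the low-count filter through its knockout libraries alone, where it is high. Sctr, the secretin receptor, fell, with 17.7, 8.72 and 17.6 CPM in the wild-type libraries against 4.80, 3.62 and 6.59 CPM in the knockouts (log2 fold change -1.55, SE 0.34, edgeR adjusted p = 0.0107). Sort1, a sorting receptor that binds neurotensin, rose by 0.49 (SE 0.15, edgeR adjusted p = 0.0343), a call lost on leaving out any 1 wild-type library (0.0654 to 0.105) or knockout 1 (0.0576) and with the replicate number as a block (0.0509). Cckbr, the gastrin receptor gene, was not tested and showed 0.326, 0.506 and 0.638 CPM in the wild-type libraries against 0.0425, 0.291 and 0.785 CPM in the knockouts, which overlapped.

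Other products of gut endocrine cells and nerves mostly did not pass. Of 32 listed, 21 were tested, of which 3 fell, 2 rose and 16 did not pass, a smaller share passing than the 38.4% of all tested genes. The median log2 fold change was -1.23, and knockout 1 was the lowest knockout library for 17 of the tested ones. Iapp, the amylin gene, showed 1.63, 1.41 and 1.10 CPM in the wild-type libraries against 0.0425, 0.0831 and 0.0872 CPM in the knockouts (log2 fold change -4.17, SE 0.57, edgeR adjusted p = 0.00170). It passed the low-count filter through its wild-type libraries alone, where it is high. Scg3, which encodes a granule protein, fell by 3.23 (log2, SE 0.81, edgeR adjusted p = 0.0258), and Ddc, an enzyme of amine synthesis, by 1.25 (SE 0.33, adjusted p = 0.0249). Neither passed on leaving out any 1 wild-type library (0.0547 to 0.0809 for Scg3, 0.0572 to 0.0772 for Ddc) or knockout 2 (0.0714 for each). Scg3 was also lost without knockout 3 (0.0513) and with no filter (0.0703), and Ddc with total counts (0.0779).

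Npy and Ppy, relatives of Pyy, were the products that rose. Both passed the low-count filter through their knockout libraries alone, where they are high. Npy showed 0.326, 0.225 and 0.116 CPM in the wild-type libraries against 2.21, 1.04 and 0.741 CPM in the knockouts (log2 fold change 2.54, SE 0.65, edgeR adjusted p = 0.0198), a call lost on leaving out wild type 2 (0.0768), wild type 3 (0.0693) or knockout 1 (0.0550). Ppy, the pancreatic polypeptide gene, showed 0, 0.337 and 0.522 CPM in the wild-type libraries against 0.850, 2.87 and 3.23 CPM in the knockouts (edgeR adjusted p = 0.0419), a call lost on leaving out wild type 2 (0.130), wild type 3 (0.0660), knockout 2 (0.114) or knockout 3 (0.112) and with limma-voom (0.0666). In the whole list, 8 were lower on leaving out knockout 1 and 9 on leaving out both libraries numbered 1, against 1 on leaving out wild type 2, wild type 3 or knockout 2. The number higher was 0 on leaving out wild type 2 or wild type 3 and 1 on leaving out knockout 2 or knockout 3.

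Among transcription factor genes of endocrine cells, of 21 listed, 18 were tested, of which 7 fell, 1 rose and 10 did not pass, where 19.2% of all tested genes were lower and 19.3% higher. The median log2 fold change was -1.58. Isl1, a homeodomain factor, showed 8.10, 17.1 and 18.9 CPM in the wild-type libraries against 1.87, 3.28 and 2.97 CPM in the knockouts (log2 fold change -2.44, SE 0.37, edgeR adjusted p = 0.00277). Rfx6, a factor of endocrine cell formation, showed 4.56, 5.57 and 3.65 CPM in the wild-type libraries against 1.06, 0.914 and 1.13 CPM in the knockouts, with no knockout library apart from the rest (log2 fold change -2.14, SE 0.33, edgeR adjusted p = 0.00285). Pdx1, a factor of antrum, duodenum and pancreas, rose by 0.67 (SE 0.15, edgeR adjusted p = 0.0103), and Foxa2, a factor of gut epithelium, fell by 0.72 on the log2 scale (SE 0.17, adjusted p = 0.0129), which did not pass with total counts (0.165). With total counts 3 of the list were lower and 3 higher. The number lower was 3 on leaving out wild type 2 or wild type 3 and 4 on leaving out knockout 3.

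For receptors by which endocrine cells sense nutrients and nerves, of 17 listed, 8 were tested, of which 1 fell, 3 rose and 4 did not pass, where 19.2% of all tested genes were lower and 19.3% higher. Galr1, a galanin receptor, fell by 4.38 on the log2 scale (SE 0.63, edgeR adjusted p = 0.00210). Lpar5, a receptor of lysophosphatidic acid, rose, with 6.79, 5.01 and 5.45 CPM in the wild-type libraries against 10.5, 12.8 and 11.3 CPM in the knockouts (adjusted p = 0.00681, edgeR). Vipr1, a receptor of vasoactive intestinal peptide, and Ffar4, a receptor of long-chain fatty acids, rose by 6.17 (SE 1.40, edgeR adjusted p = 0.0162) and 1.27 (SE 0.41, adjusted p = 0.0429). Both calls were lost on leaving out any 1 wild-type library (0.0586 to 0.0723 for Vipr1, 0.0597 to 0.135 for Ffar4), which left 1 of the list higher, and with limma-voom (0.262 and 0.0876). Ffar4 was also lost without knockout 2 (0.152) or knockout 3 (0.134) and with the replicate number as a block (0.0727).

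Markers of other cell types moved with some of the hormones, and their part in the results was not tested. For enterocytes and duodenum, of 14 listed, 10 were tested, of which 1 fell, 4 rose and 5 did not pass, where 38.4% of all tested genes passed. The list summed to 1099, 1079 and 1114 CPM in wild type 1, 2 and 3 and to 727, 2093 and 2562 CPM in knockout 1, 2 and 3. Fabp2, a fatty acid binding protein gene that made up most of the wild-type sum, was the one that fell, with 679, 677 and 754 CPM in the wild-type libraries against 19.4, 87.0 and 202 CPM in the knockouts (log2 fold change -2.78, SE 0.83, edgeR adjusted p = 0.0490). That call was lost on leaving out any 1 wild-type library (0.107 to 0.110) or knockout 2 (0.146), with RLE factors (0.0514) or total counts (0.0615), and with no filter (0.116). Anpep, a brush border peptidase, showed 28.5, 29.2 and 31.6 CPM against 4.04, 15.7 and 16.5 CPM and did not pass (log2 fold change -1.30, SE 0.50, edgeR adjusted p = 0.0861). The list thus did not move as one. Cdx2, an intestinal identity factor, showed 0.217, 0.225 and 0.348 CPM in the wild-type libraries against 0.0850, 10.5 and 11.7 CPM in the knockouts, and its relative Cdx1 showed 0 CPM in each wild-type library against 0.0425, 1.83 and 6.15 CPM in the knockouts. Sct had the same order in the knockouts, low in knockout 1 and high in knockout 2 and 3. This order is not particular to these genes. Knockout 1 was the lowest knockout library for all 10 tested genes of the list, Fabp2 included, and for all 8 tested hormones. Sis, the sucrase gene, showed 0, 0.0562 and 0.116 CPM in the wild-type libraries against 0.935, 14.5 and 27.9 CPM in the knockouts (log2 fold change 7.85, SE 1.69, edgeR adjusted p = 0.0174), a call lost on leaving out any 1 wild-type library (0.0648 to 0.0750) and with limma-voom (0.338). Sis passed the low-count filter through its knockout libraries alone, where it is high. Alpi, an alkaline phosphatase, rose by 5.36 (SE 0.67, edgeR adjusted p = 0.00300). Mep1b, a brush border protease, rose by 7.83 (SE 1.20, edgeR adjusted p = 0.00512) but did not pass with limma-voom (0.232). Vil1, the villin gene, rose by 0.72 (SE 0.18, edgeR adjusted p = 0.0176) but did not pass without wild type 2 (0.0653) or knockout 2 (0.0547). On leaving out knockout 1, 10 of the list were higher and 2 lower, and on leaving out wild type 2, 2 were higher.

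**Figure D5:**
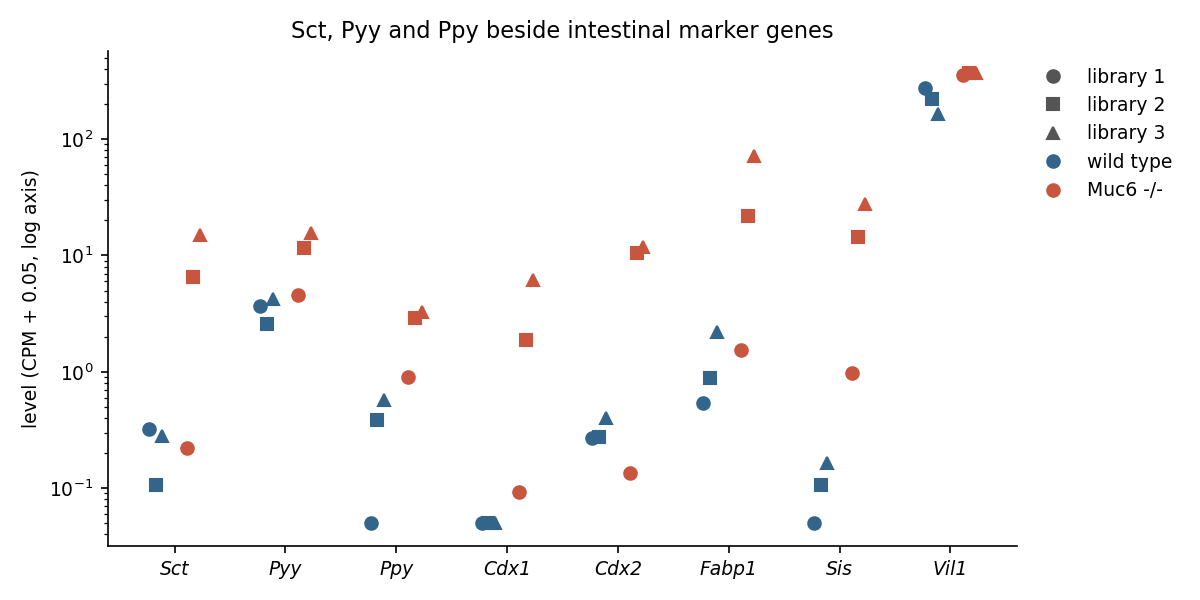
Level of Sct, Pyy and Ppy and of 5 intestinal marker genes in each library (CPM with 0.05 added, log axis; wild type blue, Muc6 -/- red). Knockout 2 and 3 lie above knockout 1 for every gene shown, by little for Vil1, and knockout 1 lies within the wild-type range for Sct and Fabp1 and below it for Cdx2. The 5 markers were picked from a list of 14. Of that list, Fabp2, which fell, and Anpep, which was lower in the knockouts without passing, are not shown.

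For parietal and chief cells, which make acid and pepsinogen, of 11 listed, 10 were tested, of which 6 fell, 1 rose and 3 did not pass, where 19.2% of all tested genes were lower and 19.3% higher. The list summed to 4751, 4456 and 6007 CPM in the wild-type libraries and 362, 696 and 1305 CPM in the knockouts, nearly all of it Pgc in wild type. The acid pump genes Atp4a and Atp4b set wild type 1 apart from the other wild-type libraries. Atp4a showed 7.28, 84.8 and 123 CPM in wild type 1, 2 and 3 against 0.637, 0.706 and 2.49 CPM in knockout 1, 2 and 3, and Atp4b showed 6.41, 143 and 139.7 CPM against 0.127, 0.374 and 2.36 CPM. The number lower was 3 on leaving out wild type 2, wild type 3 or knockout 2. Chia1, Aqp4 and Kcne2 fell by 6.55, 4.87 and 6.85 on the log2 scale (edgeR adjusted p = 0.00408, 0.00784 and 0.0115) but did not pass with limma-voom (0.0724, 0.0815 and 0.203), and Mfsd4a rose by 1.67 (adjusted p = 0.00292). Kcne2 passed the low-count filter through its wild-type libraries alone. Wild type 1 likewise held the least Kcne2 of the wild-type libraries (0.761, 11.4 and 14.6 CPM in wild type 1, 2 and 3). Among the hormones, wild type 1 held the most Gast, Sst, Gip, Cck, Sct and Pnoc and the least Ghrl, Gcg and Nts, with Pyy in between. Gast was close in wild type 1 and 2, at 1196 and 1163 CPM. A link between these genes and the hormones was not tested.

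For nerve and enteric glia, of 13 listed, 12 were tested, of which 1 fell, 2 rose and 9 did not pass. Among all tested genes 38.4% passed, 19.2% as lower and 19.3% as higher. Snap25 fell by 2.31 on the log2 scale, and S100b and Ret rose by 2.52 and 2.08 (edgeR adjusted p = 0.00926, 0.00269 and 0.00697). The list summed to 42.8, 30.5 and 59.2 CPM in the wild-type libraries and 39.8, 46.6 and 38.5 CPM in the knockouts, and the number lower was 3 on leaving out knockout 1 and 2 on leaving out knockout 3. Of 10 pancreas markers, Cpa1 had no counts in any library and Cela1 alone was tested, with 514, 494 and 525 CPM in the wild-type libraries against 205, 350.1 and 536 CPM in the knockouts (log2 fold change -0.49, SE 0.32, edgeR adjusted p = 0.265). Cela1 passed as lower on leaving out knockout 3 (0.0322). Acta2 and Myh11 had the lowest p of the smooth muscle genes and did not pass (-1.69 and -1.71, edgeR adjusted p = 0.296 and 0.368), though both did with the replicate number as a block (0.0311 and 0.0237). In the antral list, of 9 listed, 9 were tested, of which 5 fell, 3 rose and 1 did not pass. Over all tested genes the shares were 19.2% lower and 19.3% higher. Gkn2 and Gkn1 fell by 2.37 and 2.11 (log2) and Epcam and Tff2 rose by 1.16 and 1.42 (edgeR adjusted p = 4.06e-04, 6.15e-04, 6.71e-04 and 0.00222), and 3 were lower on leaving out knockout 2 or knockout 3.

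Genes whose level over the 6 libraries was most like that of a hormone were ranked by the root-mean-square difference of centred log2 CPM (0.5 CPM added) among 12405 genes. All 6 libraries share the genotype split, so likeness is a description. For Gast the nearest were Mup10 (0.705), Mogat1 (0.790), Acer1 (0.792) and Dthd1 (0.887). Mup10 showed 68.8, 73.3 and 51.7 CPM in the wild-type libraries and 0.977, 1.75 and 4.58 CPM in the knockouts, a shallower difference than that of Gast. For Sst they were Pgc (0.193), Fabp2 (0.208), Resp18 (0.259) and B3galt5 (0.345). Pgc, the progastricsin gene, showed 4501, 3917 and 5348 CPM in the wild-type libraries and 132, 499 and 1103 CPM in knockout 1, 2 and 3. The knockout order was that of Sst and of every other tested hormone. Among the wild-type libraries Pgc was highest in wild type 3 and Sst in wild type 1. For Ghrl they were Tceal8 (0.151), Ndrg2 (0.173), Anpep (0.210) and Neurod1 (0.225). Neurod1, an endocrine transcription factor, showed 3.91, 3.99 and 3.42 CPM in the wild-type libraries and 0.212, 1.58 and 2.27 CPM in knockout 1, 2 and 3.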

How the data were processed

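RNA of antral gastric mucosa was extracted with a Nucleospin kit and made into stranded TruSeq mRNA libraries, per the labels' protocols. The values the authors deposited are estimated counts per gene, as read from the values themselves (28.8% to 34.3% of those above 0 are not whole). The build was mm10, per the submitters' processing notes. No source used here names the aligner, the counting program, the annotation or the use of strand. Identifiers were matched to GENCODE M21 on that build (34652 of 34866), and the 214 others held 0.0185% to 0.0296% of counts.

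Counts were rounded, genes kept with filterByExpr, libraries scaled with TMM, and knockout compared with wild type by robust quasi-likelihood fits in edgeR 4.0.16 (R 4.3.3). SE is the size of the change over the square root of its F. Alternatives used other scaling and filters, DESeq2 1.42.0, limma-voom (limma 3.58.1), the replicate number as a block and left-out libraries. Levels per kilobase use the exon length of the gene. Ratios added 0.5 counts and were tested with scipy 1.17.1. The fits were tested on simulated data. Same-genotype libraries differed far beyond counting noise (chi-square over degrees of freedom of 16.0 to 79.6). Nothing in the labels says that replicates were separate animals, so the p-values reflect only how far these samples spread, which may be technical. One count is worth 0.0416 to 0.0580 CPM, and floors cover counting error only. No peptide sequence is shown.

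The hormone genes and gene lists were chosen with earlier results of these data known. From each other list, up to 4 genes that passed with the smallest adjusted p are named, or, in lists where no gene passed, at most 2 of the lowest p, and for Gast, Sst and Ghrl the 4 genes with the most similar levels. Other genes named with values (Mboat4, Ppy, Cckbr, Ghsr, Ntsr2, Chga, Cdx1, Cdx2, Cpa1, Atp4a, Atp4b, Ddx3y) were picked after their values were seen.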

Additional observations from a re-analysis of the deposited data

How the results depend on the processing

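Gast and Pnoc kept their direction and passed under all alternatives run. In the fits with a low-count filter, Pnoc was kept through its wild-type libraries alone, where it is high. All tested hormones except Cck kept their direction under every alternative, and Cck turned to 0.039 without both libraries numbered 1. The number of hormones lower was 3 and ranged from 2 to 4 with 1 library left out. It was 5 with the replicate number as a block and 5 without both libraries numbered 1. The number higher was 1 and ranged from 0 to 2 with 1 library left out. It was 0 with limma-voom and 2 without both libraries numbered 1. Of all genes, 5386 passed, and 3342 to 6009 did with 1 library left out, the lowest counts being 3342 without wild type 2 and 3531 without knockout 2. With total counts the median change over all genes went from 0.02 to 0.43, with 5730 genes higher and 1091 lower, 84.0% higher against 50.1%. The hormone counts were not moved by it. The log2 difference of the Ghrl to Chga ratio fell from 0.48 to 0.072 without both libraries numbered 1. The cause of these shifts was not tested. Deviations of same-numbered libraries from their genotype mean correlated at 0.255, 0.0848 and 0.178 for numbers 1, 2 and 3, so the numbers were not taken to pair the samples. Wild type 3 correlated best with knockout 2 (0.293). With the block, Ghrl (-1.26, adjusted p = 0.0483) and Gcg (-2.94, 0.0154) passed. At this depth Nts, Sct, Gcg and the knockout levels of Pnoc rest on few counts.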
